A study of Mus musculus with 14 samples.

Results

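The genes described here are the enzymes of fatty acid synthesis and fatty acid desaturation: Acly, Acss2, Me1, Acaca, Acacb, Fasn, Scd1, Scd2, Fads1 and Fads2. They were chosen by name as genes of the pathway, with earlier results of these data known, and all 10 were found among the 46983 genes of each of 2 tables, one for mouse corpus callosum and one for cultured cells. The study sequenced RNA to ask what differs when Qk, the gene of the RNA-binding protein quaking, is removed from cells of the oligodendrocyte lineage, the glia that make myelin. The callosum libraries came from animals of an FvB/C57BL6 hybrid background, 4 labelled Qk-KO (Plp-CreERT2;QKLoxP/LoxP) and 4 labelled WT (Plp-CreERT2;QKLoxP/+). Tamoxifen was given to all of these animals at an age of 8 weeks, and the tissue was taken 4 days later. The animals labelled WT therefore also carry the inducible Cre and a floxed Qk copy, and the Plp promoter limits the Cre to cells that use it. The cultured libraries, 3 per genotype, came from neural stem cells of the same background at passages 7, 12 and 13, and each passage gave 1 library labelled Qk-KO and 1 labelled WT. Those cells were differentiated in Neurobasal medium with GlutaMAX-I (2 mM), the supplement B-27, the growth factor IGF-1 (100 ng/ml) and the thyroid hormone T3 (50 ng/ml), and the labels call the product oligodendrocytes. In the sample descriptions each Qk-KO culture is marked 40HT and each WT culture EtOH, so the genotype and that difference in treatment cannot be told apart. Nothing in the labels says whether the cultures of a genotype come from separate animals, so the p-values for culture measure the spread between these libraries, which may be technical.

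Fatty acid synthesis builds long saturated chains from acetyl-CoA, which the cytosol obtains from citrate or acetate. A carboxylase turns acetyl-CoA into malonyl-CoA, and fatty acid synthase then extends the chain with reducing power from NADPH. Stearoyl-CoA desaturases put the first double bond into saturated chains, while the fatty acid desaturases Fads1 and Fads2 add further double bonds to polyunsaturated ones. Myelin is a lipid-rich membrane, and oligodendrocytes are known for high activity of this pathway.

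Each library's column holds means fitted by the authors' model, not read counts. Within a genotype they differ only by a factor per library, so whether libraries overlap says nothing about replicate spread, and all errors below are the standard errors (SE) of the authors' deposited table. The total of fitted counts ranged from 15048646 to 27666519 over the callosum libraries and from 38325833 to 48912999 over the cultures. Levels are given as fitted CPM, the CPM of a gene when a library's summed fitted counts are the total. Apart from sums over genes and shares of them, they are set against each other between genes only per kb of exon, unless stated. Changes are log2 fold changes of Qk-KO minus WT, and a gene was called at an adjusted p under 0.05 in the authors' deposited table. The targeted gene was not lower in the libraries labelled Qk-KO. Qk stood at 713 CPM in WT and 907 CPM in Qk-KO callosum (0.32 ± 0.12, adjusted p = 0.162, authors' deposited table), and it rose by 0.66 ± 0.14 in culture, from 1972 to 3277 CPM (adjusted p = 4.19e-05 in the authors' deposited table). These are reads over the whole gene, parts outside a floxed segment included, and neither the deletion nor the labels can be checked from them.

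Scd1 and Scd2 are close copies, and a part of their coding sequence cannot be told apart by reads. The coding sequences of 1065 bases (Scd1) and 1074 bases (Scd2) share an unbroken stretch of 147 bases, at positions 523 to 669 of Scd1 and 532 to 678 of Scd2, read from the GENCODE M21 transcripts. It is shown in capitals with 15 flanking bases on either side, because reads that lie inside it could have been counted for either gene:
Scd1: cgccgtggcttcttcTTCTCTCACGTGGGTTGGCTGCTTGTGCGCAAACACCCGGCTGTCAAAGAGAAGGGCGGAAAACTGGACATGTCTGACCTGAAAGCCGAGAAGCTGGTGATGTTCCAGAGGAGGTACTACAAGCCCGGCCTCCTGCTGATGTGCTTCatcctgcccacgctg
Scd2: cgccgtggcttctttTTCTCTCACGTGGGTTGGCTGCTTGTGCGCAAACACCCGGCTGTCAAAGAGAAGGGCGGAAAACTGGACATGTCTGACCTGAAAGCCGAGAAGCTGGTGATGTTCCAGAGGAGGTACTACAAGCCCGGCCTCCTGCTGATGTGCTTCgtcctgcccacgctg
Of the 1016 windows of 50 bases in the Scd1 coding sequence, 145 also occur in Scd2 (14.3%), and of 991 windows of 75 bases, 79 do (7.97%). These shares are of the coding sequence alone. All exons together span 4892 bases in Scd1 and 5464 bases in Scd2, and the untranslated parts were not compared. The sources used here give neither the read length nor the treatment of reads with several matches. How far the values of Scd1 and Scd2 are uncertain for this reason is therefore not known. Fads1 and Fads2 share no window of 50 bases, and their longest common stretch has 17 bases. Acaca and Acacb likewise share no such window, with a longest common stretch of 29 bases.

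RefSeq promoter windows on GRCm38.p6, each the 250 bases before a start site, were found for 7 of the 10 genes, in 8 windows. Scd1, Scd2 and Fads1 had no entry. The windows of Acss2, Me1 and Fads2, which were called in culture, and of Fasn, which was not, are printed in the gene's own direction. Capitals mark matches on either strand to the box read by the factor NF-Y (CCAAT) and to the GC box (GGGCGG):
Acss2: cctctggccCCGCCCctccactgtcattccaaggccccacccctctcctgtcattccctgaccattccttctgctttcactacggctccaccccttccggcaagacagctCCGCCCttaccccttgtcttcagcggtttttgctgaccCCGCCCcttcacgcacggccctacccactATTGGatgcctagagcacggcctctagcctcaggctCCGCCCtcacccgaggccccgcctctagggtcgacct
Me1: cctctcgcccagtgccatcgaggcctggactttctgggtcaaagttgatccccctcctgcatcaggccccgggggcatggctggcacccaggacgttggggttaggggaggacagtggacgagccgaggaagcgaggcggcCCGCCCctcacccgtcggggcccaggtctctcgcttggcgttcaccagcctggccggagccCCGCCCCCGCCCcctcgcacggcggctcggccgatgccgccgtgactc
Fads2: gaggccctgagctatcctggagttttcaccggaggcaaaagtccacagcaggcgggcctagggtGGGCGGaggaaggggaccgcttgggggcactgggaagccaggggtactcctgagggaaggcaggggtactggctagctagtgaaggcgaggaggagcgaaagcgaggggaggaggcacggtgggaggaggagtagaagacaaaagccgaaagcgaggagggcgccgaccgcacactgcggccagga
Fasn: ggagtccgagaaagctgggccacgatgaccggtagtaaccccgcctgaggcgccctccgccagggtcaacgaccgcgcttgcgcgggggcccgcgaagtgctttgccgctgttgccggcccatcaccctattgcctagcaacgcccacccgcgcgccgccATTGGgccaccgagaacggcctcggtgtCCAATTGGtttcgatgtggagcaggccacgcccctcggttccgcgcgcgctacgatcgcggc
The Acss2 window lies at chr2:155517793-155518042 on the plus strand. The others are on the minus strand, Me1 at chr9:86695915-86696164, Fads2 at chr19:10101504-10101753 and Fasn at chr11:120824548-120824797. CCAAT was found in windows of Acacb, Acss2 and Fasn and in the other Me1 window, which is not printed, and it occurs in 33.8% of all 32851 promoter windows of this length. GGGCGG was found in windows of Acly, Acss2, Fads2 and Me1, and in 32.7% of all windows. A form of the sterol response element, TCACNCCAC, was in no window of the 7 genes and in 1.05% of all windows, and a looser form, TCANNCCAC, was in those of Acacb and Acly and in 3.52% of all. The E-box CACGTG was in none of them and in 6.02% of all, and the nuclear receptor half-site AGGTCA was in the Acly window and in 4607 of all 32851 windows. These are matches of letters, not binding sites. The windows precede RefSeq start sites, which need not be the first start of the gene. Those of Acaca and Acacb and the Me1 window not printed lie inside the gene as annotated in GENCODE M21. Most of the Fads2 window and parts of the printed Acss2 and Me1 windows do too. An absent match there does not describe the sequence before the gene.

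In the corpus callosum, the stearoyl-CoA desaturases fell and no other gene of the pathway was called. Scd2 was at 77.0% and Scd1 at 71.5% of the WT level in libraries labelled Qk-KO, while the genes that supply acetyl-CoA, carboxylate it and build the chain did not pass. The 2 lower genes of 10 stand beside 0.231% of all 19935 tested genes called lower, and 0.249% of the 12451 with a mean of at least 100 normalized counts, a minimum that all 10 genes met in both tables. None of the 10 was called higher by the deposited DESeq2 test, beside 2.09% of all tested genes called higher and 2.59% of those with a mean of at least 100. At an unadjusted p under 0.05, 0 of the 10 were higher. For counts at that unadjusted threshold, here and below, the share of all tested genes was not computed. They can therefore not be set against the shares called. The median change of the 10 was -0.14 log2 units, against -0.01 over all tested genes, and 9 of 10 changes were negative, against 51.8% of all tested genes. With a Student reference for the deposited score in place of the normal one, Scd2 (adjusted p = 0.396) and Scd1 (adjusted p = 0.561) no longer passed, and 8 genes of the whole callosum table did. A minimum fold of 1.5 would also end both calls.

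In the cultured cells, all 4 desaturases fell to between 31.8% and 52.0% of the WT level in libraries labelled Qk-KO, and the NADPH source Me1 and the acetate enzyme Acss2 fell with them. Fasn, Acaca, Acacb and Acly did not pass. Acacb, Acly and Fasn lay just above the threshold (adjusted p = 0.0551, 0.0565 and 0.0591, authors' deposited table). The 6 of 10 genes called lower stand beside 15.2% of all 17503 tested genes called lower, and 19.1% of the 12055 with a mean of at least 100. At an unadjusted p under 0.05 in the deposited DESeq2 test, 8 of the 10 were lower. None was called higher by the deposited DESeq2 test, beside 13.3% of all tested genes called higher and 16.7% of those with a mean of at least 100. At an unadjusted p under 0.05, 1 gene, Acly, was higher. The median change of the 10 was -0.91, against 0.01 over all tested genes. Scaling by total fitted counts in place of the authors' size factors shifted every culture change by 0.08 log2 units, which is also the gap between the percentages of WT and the CPM values below. It called 2296 genes lower and 3054 higher in place of 2667 and 2336. Under a Student reference no gene of the culture table passed, and the smallest adjusted p among the 10 was 0.0570, for both Scd1 and Scd2.

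**Figure D1:**
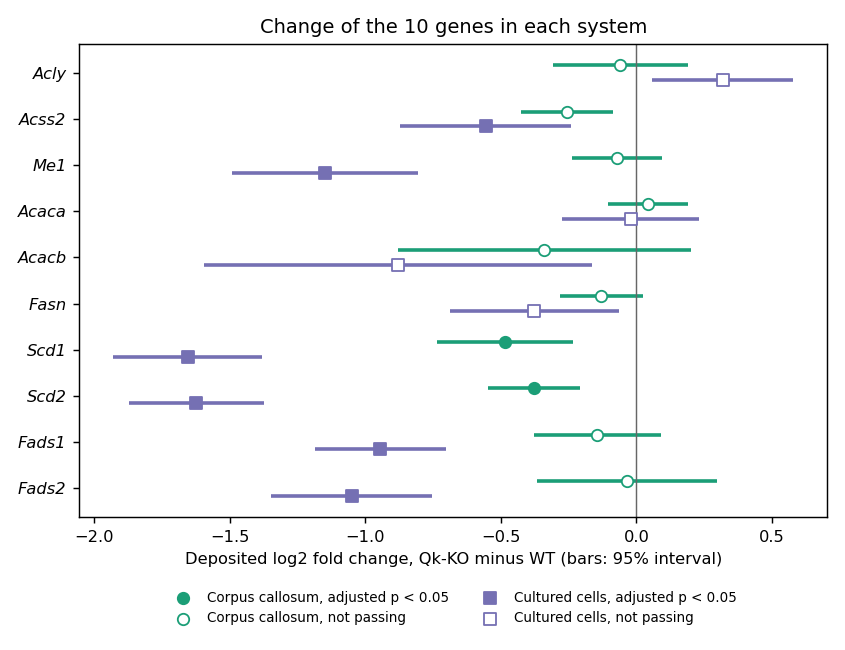
Log2 fold change of each of the 10 genes (Qk-KO minus WT, authors' deposited table) in corpus callosum (circles, 4 libraries per genotype) and culture (squares, 3 per genotype), with 95% intervals as bars and filled symbols for an adjusted p under 0.05. The filled symbols are Scd1 and Scd2 in callosum and Acss2, Me1, Scd1, Scd2, Fads1 and Fads2 in culture, all left of 0.

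Levels per kb of exon put Scd2 first in both systems. In WT callosum, Scd2 stood at 271 CPM per kb, followed by Acly at 44.2, Scd1 at 34.8, Fads1 at 34.7, Fasn at 32.8 and Fads2 at 27.7. Me1 at 12.5, Acaca at 10.1 and Acss2 at 5.55 CPM per kb were lower, and Acacb was last at 0.882. In WT culture the order was Scd2 at 841, Fads2 at 304, Fads1 at 176, Scd1 at 110, Acly at 45.4, Fasn at 40.5 and Me1 at 37.0 CPM per kb. Acaca at 7.33 and Acss2 at 7.16 were close to each other, and Acacb was again last at 0.393. Whether neighbours in these orders differ beyond the spread between libraries cannot be read from fitted means.

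Summed over the 10 genes, the pathway took 2786 CPM in WT and 2368 CPM in Qk-KO callosum, and Scd2 made up 53.2% and 48.9% of these sums. In culture the sum was 8016 CPM in WT and 3659 CPM in Qk-KO, and Scd2 made up 57.3% and 43.0%. Without Scd2 the culture sums were 3419 and 2085 CPM. These sums and shares are of fitted CPM not divided by exon length, so genes with longer exons weigh more in them. The tables were normalized separately, so levels are not compared between tissue and culture.

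**Figure D2:**
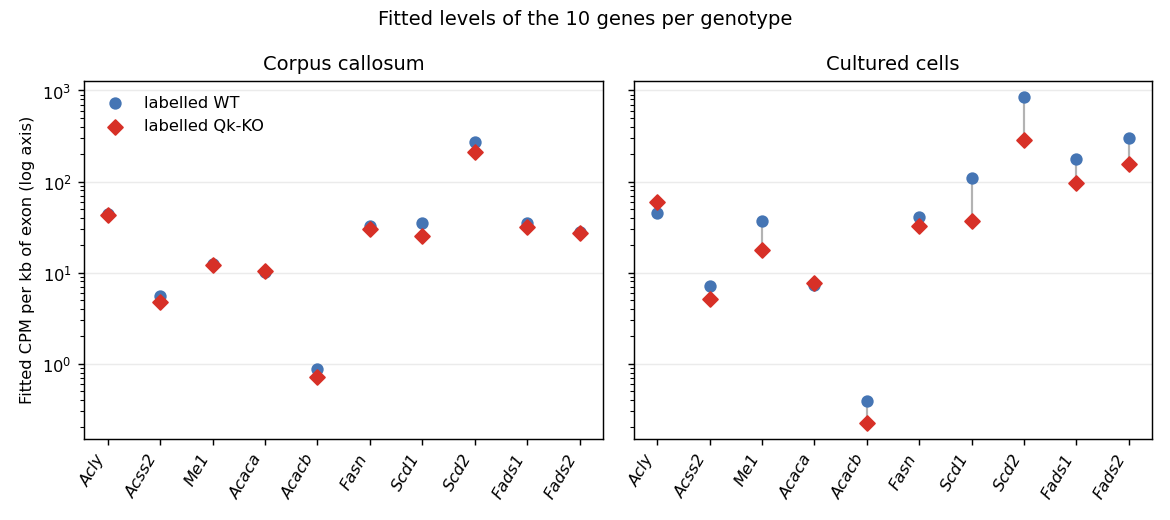
Fitted level of each gene in CPM per kb of exon (log axis) in WT (circles) and Qk-KO (diamonds) for corpus callosum on the left and cultured cells on the right; the points are model means and carry no error. The widest gaps in culture are at Scd1 (110 to 37.0) and Scd2 (841 to 288), and in callosum Scd1 went from 34.8 to 25.3 and Scd2 from 271 to 212.

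Of the desaturases, the stearoyl-CoA pair fell in both systems and the Fads pair in culture. Scd2 (ENSMUSG00000025203.5, chromosome 19, 44293674 to 44306864, plus strand, GRCm38) encodes the stearoyl-CoA desaturase known to predominate in brain. Its fitted counts in callosum were 36474, 40978, 26532 and 32128 in the WT libraries and 25078, 22029, 20999 and 17430 in those labelled Qk-KO. These counts are not divided by the factor of each library, and their order across libraries follows from the fit and the depth. As a share of the library the level went from 1481 to 1158 CPM, a fall by 0.38 ± 0.09 log2 units (adjusted p = 0.000997 in the authors' deposited table) to 77.0% of WT, with a 95% interval of 68.5% to 86.5%. In culture the fitted counts of Scd2 were 224851, 176183 and 191797 in WT and 76353, 70376 and 65520 in Qk-KO. Scd2 fell by 1.62 ± 0.13 log2 units there, from 4597 to 1574 CPM (adjusted p = 6.50e-35, authors' deposited table), which is 32.5% of WT (27.3% to 38.6%).

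Scd1 (ENSMUSG00000037071.2, chromosome 19, 44394455 to 44407879, minus strand), the stearoyl-CoA desaturase best known from liver and fat, followed its neighbour. Its fitted counts in callosum were 4188, 4705, 3046 and 3689 in WT and 2675, 2350, 2240 and 1860 in Qk-KO. The level fell by 0.48 ± 0.13 log2 units, from 170 to 124 CPM (adjusted p = 0.00979, authors' deposited table) and to 71.5% of WT (60.1% to 85.1%). In culture Scd1 had 26425, 20705 and 22540 fitted counts in WT and 8780, 8093 and 7534 in Qk-KO. It fell by 1.65 ± 0.14 log2 units, from 540 to 181 CPM (adjusted p = 6.68e-30, authors' deposited table), to 31.8% of WT (26.3% to 38.4%). Per kb, Scd2 stood 7.80 times above Scd1 in WT callosum and 8.39 times in Qk-KO callosum, and 7.62 and 7.79 times in culture, so the pair kept nearly the same ratio in all 4 groups. Reads of the shared stretch of coding sequence printed above could have been counted for either gene or left out.

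Fads1 and Fads2 lie close together on chromosome 19 on opposite strands and act on polyunsaturated fatty acids. Fads1 (ENSMUSG00000010663.4, 10182888 to 10196877, plus strand) stood at 167 CPM in WT and 154 CPM in Qk-KO callosum, a change of -0.14 ± 0.12 that did not pass (adjusted p = 0.977, authors' deposited table). In culture its fitted counts were 41511, 32526 and 35409 in WT and 22577, 20809 and 19373 in Qk-KO. Fads1 fell by 0.94 ± 0.12 log2 units, from 849 to 465 CPM (adjusted p = 6.84e-13, authors' deposited table) and to 52.0% of WT (44.0% to 61.4%).

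Fads2 (ENSMUSG00000024665.7, 10062765 to 10101746, minus strand) was nearly level in callosum, at 91.4 CPM in WT and 90.7 CPM in Qk-KO (-0.03 ± 0.17, adjusted p = 1.00, authors' deposited table). The 95% interval of that value, 77.5% to 123% of WT, leaves room for a change in either direction. In culture the fitted counts of Fads2 were 49064, 38444 and 41851 in WT and 24790, 22849 and 21272 in Qk-KO. It fell by 1.05 ± 0.15 log2 units, from 1003 to 511 CPM (adjusted p = 1.23e-10, authors' deposited table) and to 48.3% of WT (39.3% to 59.3%). The ratio of Fads2 to Fads1 per kb was 0.799 in WT and 0.862 in Qk-KO callosum, and 1.73 and 1.60 in culture.

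The enzymes that supply the pathway differed among themselves. Me1 (ENSMUSG00000032418.15, chromosome 9, 86581371 to 86695953, minus strand), the cytosolic malic enzyme that makes NADPH, stood at 48.0 CPM in WT and 46.5 CPM in Qk-KO callosum (-0.07 ± 0.09, adjusted p = 1.00, authors' deposited table). In culture its fitted counts were 6962, 5455 and 5939 in WT and 3286, 3029 and 2820 in Qk-KO. Me1 fell there by 1.15 ± 0.17 log2 units, from 142 to 67.7 CPM (adjusted p = 1.35e-09, authors' deposited table) and to 45.1% of WT (35.6% to 57.2%). It was the largest fall outside the stearoyl-CoA desaturases among the 10 genes.

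Acss2 (ENSMUSG00000027605.18, chromosome 2, 155517948 to 155585724, plus strand) makes acetyl-CoA from acetate. In callosum it had 1388, 1560, 1010 and 1223 fitted counts in WT and 1038, 912, 870 and 722 in Qk-KO. The change of -0.26 ± 0.09 did not pass (56.4 to 48.0 CPM, adjusted p = 0.107, authors' deposited table), with an interval of 74.5% to 94.1% of WT before adjustment over genes. In culture Acss2 fell by 0.56 ± 0.16 log2 units, from 72.7 to 52.2 CPM (adjusted p = 0.00327, authors' deposited table) and to 68.0% of WT (54.7% to 84.6%).

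Acly (ENSMUSG00000020917.17, chromosome 11, 100476353 to 100528000, minus strand), which makes acetyl-CoA from citrate, was the only one of the 10 with a positive change in culture on the authors' scaling; with scaling by total fitted counts Acaca was positive too. It stood at 240 CPM in WT and 315 CPM in Qk-KO cultures, a change of 0.32 ± 0.13 that did not pass (adjusted p = 0.0565, authors' deposited table). With scaling by total fitted counts its adjusted p was 0.0130, and it then counted as higher. In callosum Acly stood at 233 and 227 CPM (-0.06 ± 0.13, adjusted p = 1.00, authors' deposited table).

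The carboxylases were not called in either system. Acaca (ENSMUSG00000020532.18, chromosome 11, 84129672 to 84401651, plus strand), the cytosolic acetyl-CoA carboxylase of lipid synthesis, stood at 172 CPM in WT and 180 CPM in Qk-KO callosum (0.04 ± 0.08, adjusted p = 1.00, authors' deposited table). Its culture levels were 125 and 130 CPM, with a change of -0.02 ± 0.13 on the authors' scaling (adjusted p = 0.932, authors' deposited table) and of 0.06 with scaling by total fitted counts. The intervals, 93.0% to 114% of WT in callosum and 82.6% to 117% in culture, are among the narrower ones of the set. Acacb (ENSMUSG00000042010.16, chromosome 5, 114146535 to 114250761, plus strand), the carboxylase at the mitochondrial surface that is tied to control of fatty acid oxidation, was the least abundant of the set. It went from 8.50 to 6.82 CPM in callosum (-0.34 ± 0.28, adjusted p = 0.972, authors' deposited table). In culture it went from 3.79 to 2.17 CPM (-0.88 ± 0.36, adjusted p = 0.0551, authors' deposited table), and its interval of 33.1% to 89.3% of WT was wide. Per kb, Acaca stood 11.4 times above Acacb in WT callosum and 18.7 times in WT culture.

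Fasn (ENSMUSG00000025153.9, chromosome 11, 120805846 to 120824547, minus strand) encodes fatty acid synthase itself. In callosum it stood at 359 CPM in WT and 333 CPM in Qk-KO (-0.13 ± 0.08, adjusted p = 0.789, authors' deposited table). In culture its fitted counts were 21694, 16998 and 18505 in WT and 17478, 16109 and 14998 in Qk-KO. The change from 444 to 360 CPM, -0.38 ± 0.16, did not pass (adjusted p = 0.0591, authors' deposited table), and the interval ran from 62.1% to 95.6% of WT. Acacb, Fasn and Acly thus lay just above the threshold in culture, and a stricter filter on low means, at 50 normalized counts, was enough to bring all of them under it.

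The culture change was larger than the callosum change for 5 of the 10 genes. The contrasts share no library, and the difference was tested with a two-sided z test on the deposited changes and SE, adjusted over the 16601 genes tested in both tables. Of those genes, 11.7% had a lower change in culture than in callosum and 9.84% a higher one. The difference, culture minus callosum, was -1.25 ± 0.15 for Scd2 (adjusted p = 4.59e-14) and -1.17 ± 0.19 for Scd1 (adjusted p = 2.66e-08). It was -1.08 ± 0.19 for Me1 (adjusted p = 8.35e-07), -1.02 ± 0.23 for Fads2 (adjusted p = 0.000129) and -0.80 ± 0.17 for Fads1 (adjusted p = 5.33e-05). Acly (0.38 ± 0.18, adjusted p = 0.135), Acss2 (-0.30 ± 0.18, adjusted p = 0.260), Fasn (-0.25 ± 0.18, adjusted p = 0.357), Acacb (-0.54 ± 0.46, adjusted p = 0.463) and Acaca (-0.06 ± 0.15, adjusted p = 0.829) did not pass. For Acss2, which was called in culture and not in callosum, a different change in the 2 systems was thus not shown. Tissue and culture also differ in their marker levels, given below, and in the 40HT and EtOH labels of the cultures, and these cannot be told apart from the system.

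**Figure D3:**
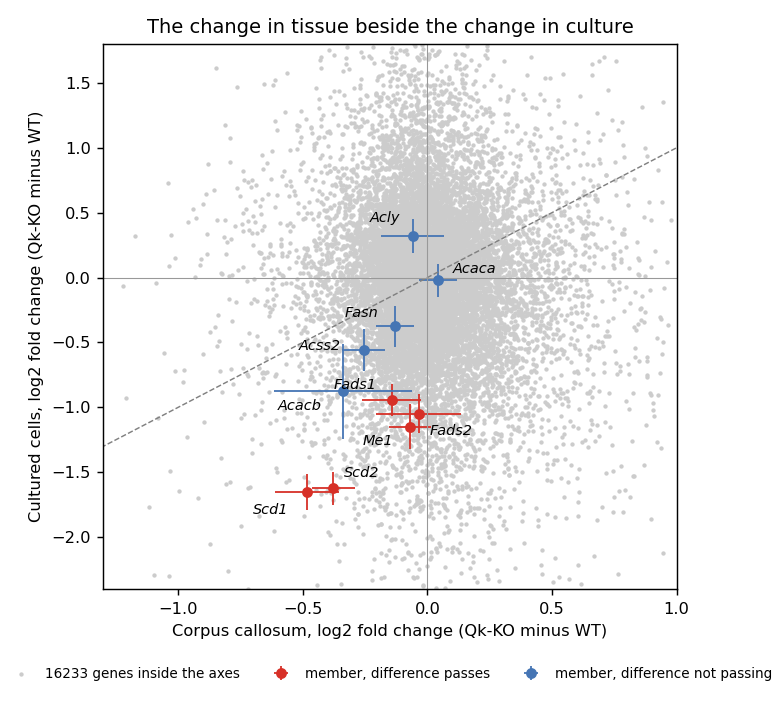
Change in corpus callosum (horizontal) against change in culture (vertical), both log2 Qk-KO minus WT, for the 10 genes with 1 SE as bars and for other genes in grey; 368 of the 16601 genes lie outside the axes, and the dashed line marks equal changes. Scd1, Scd2, Me1, Fads1 and Fads2 (red, difference passes) lie well below the dashed line, and Acaca lies near it.

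The list of regulators holds the SREBP factors that drive lipid genes, the proteins that hold or release them, the LXR receptors and the ChREBP pair. Of its 11 genes, 1 fell and 1 rose in callosum, and 2 fell and 1 rose in culture, with medians of 0.02 and -0.05. Over all tested genes, 0.231% fell and 2.09% rose in callosum, and 15.2% fell and 13.3% rose in culture. Srebf1, whose product drives fatty acid genes, stood at 78.4 CPM in WT and 86.9 CPM in Qk-KO callosum (0.12 ± 0.19, adjusted p = 1.00, authors' deposited table). In culture Srebf1 fell by 1.30 ± 0.22 log2 units, from 175 to 75.1 CPM (adjusted p = 5.95e-08, authors' deposited table), and the difference between systems passed (-1.43 ± 0.29, adjusted p = 2.24e-05). Scap, the escort of the SREBP proteins, fell by 0.43 ± 0.17 in culture (adjusted p = 0.0362, authors' deposited table). Mbtps2, a protease that frees them, rose by 0.52 ± 0.18 (adjusted p = 0.0178, authors' deposited table). Srebf2, the sterol-oriented member, stood at 0.02 ± 0.11 in callosum and -0.10 ± 0.19 in culture, and neither passed (adjusted p = 1.00 and 0.771, authors' deposited table).

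Insig1, which retains SREBP proteins in the endoplasmic reticulum, fell by 0.50 ± 0.13 in callosum, from 103 to 74.1 CPM (adjusted p = 0.00947, authors' deposited table). In culture Insig1 stood at 165 and 169 CPM (-0.05 ± 0.17, adjusted p = 0.875, authors' deposited table; 0.03 with scaling by total fitted counts), and the difference between systems did not pass (adjusted p = 0.124). Insig2 stood at -0.10 ± 0.10 in callosum and 0.26 ± 0.18 in culture, neither passing (adjusted p = 1.00 and 0.298, authors' deposited table). Mlxipl, the gene of ChREBP, rose by 1.34 ± 0.23 in callosum from a low level of 1.34 to 3.43 CPM (adjusted p = 1.91e-06, authors' deposited table). Its change in culture was 0.21 ± 0.39 (adjusted p = 0.755, authors' deposited table). The z test of the difference between systems did not pass for Mlxipl (adjusted p = 0.0571). The LXR genes did not pass in either system: Nr1h2 stood at 0.03 ± 0.11 in callosum and -0.27 ± 0.17 in culture, and Nr1h3 at 0.35 ± 0.22 and -0.48 ± 0.31 (authors' deposited table).

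Of 10 listed modulators of the carboxylase none was called in callosum, 0 at an unadjusted p under 0.05 as well, while 2 fell and 1 rose in culture, shares near those of all tested genes there, with medians of -0.10 and -0.05. Thrsp, also known as Spot14 and tied to fat synthesis, fell by 2.34 ± 0.25 log2 units in culture, from 30.6 to 6.38 CPM (adjusted p = 1.07e-18, authors' deposited table). Its relative Mid1ip1, which promotes assembly of acetyl-CoA carboxylase, fell by 1.74 ± 0.18, from 112 to 35.3 CPM (adjusted p = 3.76e-20, authors' deposited table). Prkaa1, a catalytic subunit of the kinase AMPK that inhibits the carboxylase, rose by 0.30 ± 0.12 (adjusted p = 0.0445, authors' deposited table). Among the 16 genes that supply citrate, acetyl-CoA and NADPH, none was called in callosum (1 higher at an unadjusted p under 0.05). In culture 5 of them fell, beside 15.2% of all tested genes, and their median there was -0.29. G6pdx, the entry enzyme of the pentose phosphate pathway, fell by 1.09 ± 0.16, from 240.5 to 119 CPM (adjusted p = 1.56e-10, authors' deposited table). Idh1, a cytosolic NADPH source, fell by 0.59 ± 0.13 and the citrate synthase Cs by 0.65 ± 0.16 (authors' deposited table).

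Of 6 other desaturases, 1 fell in each system, and it was Degs1, the dihydroceramide desaturase of sphingolipid synthesis. For this and the next counts, the shares of all tested genes were 0.231% called lower and 2.09% higher in callosum. In culture they were 15.2% and 13.3%, and 1 of 6 is near the share called lower there. Degs1 fell by 0.38 ± 0.09 in callosum, from 87.9 to 68.6 CPM (adjusted p = 0.00321, authors' deposited table), and by 1.71 ± 0.16 in culture, from 134 to 43.3 CPM (adjusted p = 5.91e-26, authors' deposited table). Of 11 tested elongation genes (12 listed), 1 rose in callosum and 4 fell and 2 rose in culture. Elovl5, which extends polyunsaturated chains, fell by 1.57 ± 0.16 and the dehydratase Hacd2 by 1.65 ± 0.19 in culture, while Elovl6, which extends the product of fatty acid synthase, rose by 0.66 ± 0.14 (authors' deposited table). Elovl1 rose by 0.48 ± 0.14 in callosum (adjusted p = 0.0330, authors' deposited table). Of 8 acyl-CoA synthetases none was called in callosum (2 lower at an unadjusted p under 0.05), and 4 fell and 3 rose in culture, among them Acsbg1 (-2.31 ± 0.22), Acsl6 (-1.42 ± 0.22) and Acsl4 (1.16 ± 0.14, authors' deposited table). Of 9 tested genes of mitochondrial fatty acid synthesis (10 listed), none was called in callosum, with 0 at an unadjusted p under 0.05, and 2 fell in culture.

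Cholesterol synthesis is the other large lipid pathway of myelin. Of its 20 genes, 1 fell in callosum (6 lower at an unadjusted p under 0.05), and 3 fell and 1 rose in culture, with medians of -0.14 and -0.13. The culture count of lower genes is close to the 15.2% of all tested genes. In callosum 0.231% of all tested genes were called lower. Idi1 fell by 0.35 ± 0.10 in callosum (adjusted p = 0.0253, authors' deposited table). In culture Hmgcs1, at an early step of the pathway, fell by 1.46 ± 0.16, from 936 to 359 CPM, and Ebp rose by 1.25 ± 0.24 (authors' deposited table). Mitochondrial beta-oxidation, which breaks fatty acids down, had no called gene of 18 in callosum (1 lower and 1 higher at an unadjusted p under 0.05) and 17 lower in culture, with a culture median of -0.82 against -0.91 for the 10 synthesis and desaturation genes. Cpt1a, which admits fatty acids to mitochondria, fell by 1.49 ± 0.13, Acadm by 1.21 ± 0.12 and Acadl by 2.05 ± 0.22 in culture (authors' deposited table). Between systems, the change was lower in culture for 14 of the 18 beta-oxidation genes, for 3 of the 11 elongation genes and for 1 of the 20 cholesterol genes, beside 5 of the 10 genes here. It was higher in culture for 0, 2 and 1 genes of these 3 lists. Of all 16601 genes tested in both systems, 11.7% had a lower change in culture and 9.84% a higher one.

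**Figure D4:**
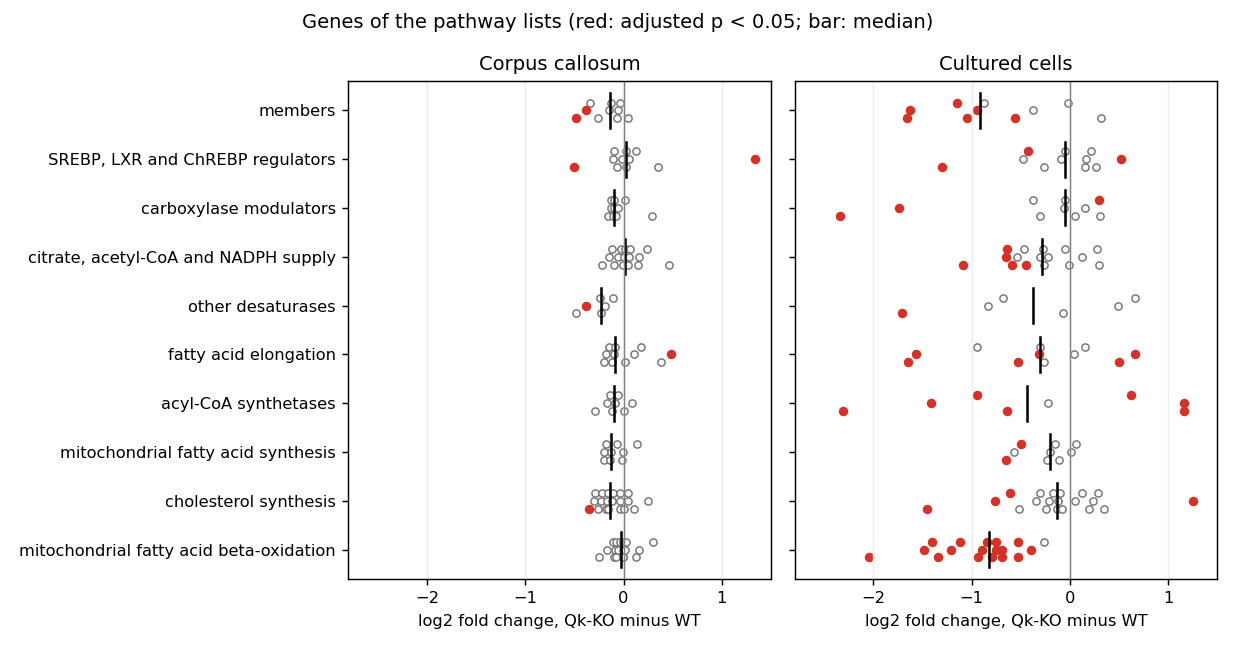
Log2 fold change (Qk-KO minus WT) of each tested gene by list, for corpus callosum on the left and culture on the right, with genes at an adjusted p under 0.05 in red and a bar at each list's median. In callosum most medians lie close to 0, while in culture the 10 genes (members, top line) and beta-oxidation (bottom line) have medians of -0.91 and -0.82.

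Markers of other cell types moved with these results, and in bulk RNA fewer cells of a type and less RNA per cell cannot be told apart. The cultures expressed oligodendrocyte genes, with the myelin gene Mbp at 525 CPM in WT, and they also expressed astrocyte genes. The 10 astrocyte markers summed to 13725 CPM in WT and 4126 CPM in Qk-KO cultures, with 8 lower, a median of -2.10 and Gfap, the astrocyte filament, falling from 4008 to 408 CPM (authors' deposited table for the calls). The 10 mature oligodendrocyte markers summed to 3179 and 2518 CPM, with 2 lower and 1 higher. These counts are near the shares of all tested genes in culture, 15.2% called lower and 13.3% higher. Mbp did not pass (-0.28 ± 0.63, adjusted p = 0.806, authors' deposited table). Of 10 neuron markers 8 rose in culture, from a sum of 774 to 1810 CPM, and 5 of 8 cell cycle genes rose, from 115 to 185 CPM. Of the neural stem cell markers 3 rose and 1 fell, of the oligodendrocyte precursor markers 2 rose and 2 fell, and of those of newly formed oligodendrocytes 1 rose and 1 fell. Of 4 tested endothelial and mural markers 2 fell from low levels, and no choroid plexus, adipocyte or fibroblast marker was called (0 at an unadjusted p under 0.05). Microglia markers were nearly absent there, with a sum of 2.43 and 0.767 CPM and with C1qa, C1qb, C1qc, Clec7a and Trem2 at 0. The part of these marker shifts in the falls of Scd1, Scd2, Fads1, Fads2, Me1 and Acss2 was not tested.

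In callosum the marker changes were of another kind. Microglia markers rose in 10 of 12 cases, from a sum of 326 to 743 CPM, while 2.09% of all tested genes were called higher and 0.231% lower. Of the 10 astrocyte markers 2 rose, Gfap and Aqp4, and the sum went from 4957 to 6125 CPM. Of the 10 mature oligodendrocyte markers Mog and Mag rose and none fell, and the sum was 7552 CPM in WT and 7995 CPM in Qk-KO, so the falls of Scd1 and Scd2 stood beside a marker sum that was not lower. The 4 choroid plexus markers, genes of a neighbouring tissue, were not called, though all 4 were lower at an unadjusted p under 0.05, with a median of -0.81 and sums of 1988 and 1153 CPM. Neuron markers were not called either (1 of 10 lower at an unadjusted p under 0.05), with sums of 6296 and 5854 CPM. No gene of the oligodendrocyte precursor, neural stem cell, cell cycle, endothelial and mural, or adipocyte and fibroblast lists was called, with 2 higher, 1 lower, 0, 2 lower and 0 of them at an unadjusted p under 0.05. Of 4 tested markers of newly formed oligodendrocytes 1, Bcas1, rose. The part of these shifts in the callosum results was not tested.

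**Figure D5:**
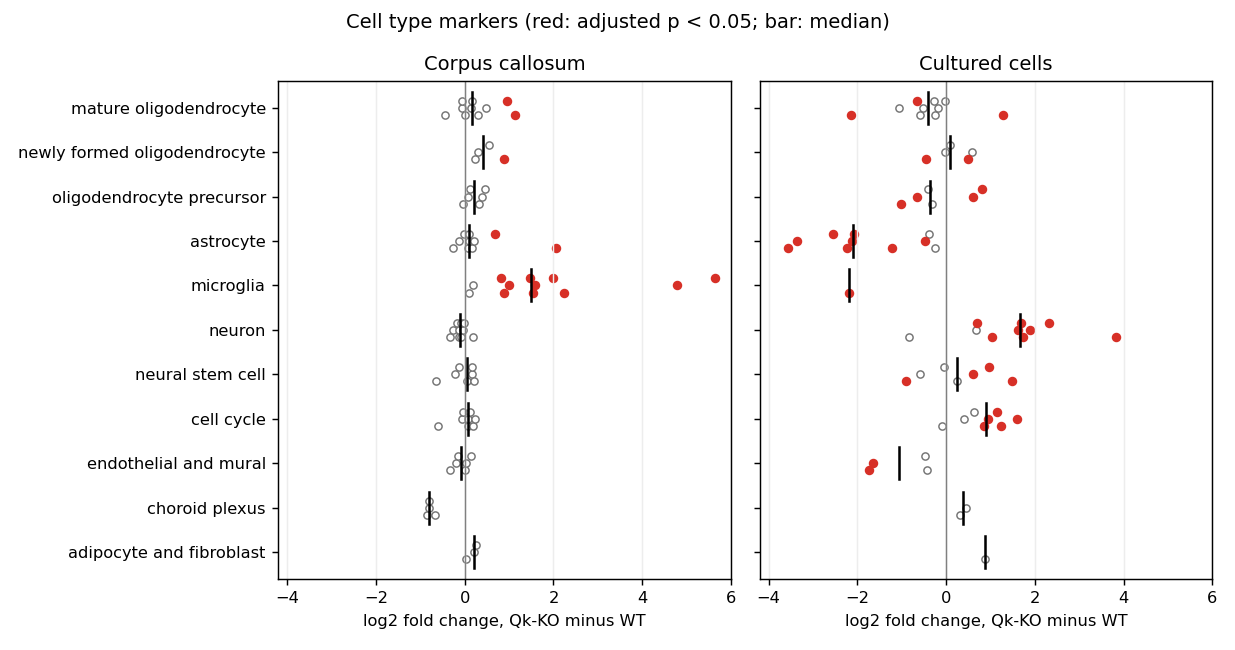
Log2 fold change (Qk-KO minus WT) of cell type markers by list, for corpus callosum on the left and culture on the right, with genes at an adjusted p under 0.05 in red and a bar at each list's median. Microglia markers lie to the right in callosum (10 of 12 higher), and in culture astrocyte markers lie to the left (8 of 10 lower) and neuron markers to the right (8 of 10 higher).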

How the data were processed

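RNA-seq libraries of corpus callosum (4 per genotype) and of cultured cells (3 per genotype) were used as the authors' 2 deposited tables, each of 46983 genes. Build mm10 and the tools DESeq2, featureCounts, TopHat2 2.0.14 and FastQC are listed in the submitters' processing notes, without roles or settings. The annotation, the model design and whether counting used strand are not stated there, so reads cannot be divided between overlapping genes of opposite strands. The deposited library columns are on a log2 scale. Within a genotype they differ by a constant, and between genotypes by a constant beside the deposited log2 fold change, within 1e-09, so they are the log2 of a fitted mean plus 1 and carry no replicate spread. Per the file headers, the mean is a signal averaged over libraries after division by size factors. The deposited score equals the ratio of fold change to SE, and the deposited p-value follows from it on a normal reference. Recomputing the Benjamini-Hochberg adjustment returned the deposited values within 1e-06. The deposited direction, WT over Qk-KO, was turned.

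A count test, planned for the case of raw counts, does not suit fitted means, so calls rest on the authors' DESeq2 statistics (19935 genes tested in callosum, 17503 in culture, above means of 8.08 and 8.52). The median SE was 0.19 and 0.21 log2 units. Fitted CPM and CPM per kb of exon (GENCODE M21, GRCm38) were computed with Python 3.11.15, numpy 2.4.6, pandas 2.3.3, scipy 1.17.1 and matplotlib 3.10.9. The z test between systems was run on simulated normal changes whose true spread was set to the deposited SE. Such a run checks the calculation and cannot show whether these SE suit a normal reference. Fold changes look shrunken toward 0, so those of scarce genes may be understated. The 10 genes, the 9 pathway lists and the 11 marker lists were chosen with earlier results of these data known. Named are the 10 genes, Qk, Srebf1, Srebf2, Insig1, Insig2, Scap, Mlxipl, Nr1h2 and Nr1h3, and from each other list the 3 called genes with the smallest p and the most abundant gene that did not pass, or, for markers, the most abundant gene and the 2 with the smallest p; not every gene under this rule is printed, and a marker gene is not reported here. Mbp and the other mature oligodendrocyte markers in culture, and the microglia markers at 0, were named after their values were seen. Alternatives were other thresholds, a minimum fold, a Student reference, other filters on low means and other scalings.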

Additional observations from a re-analysis of the deposited data

Results flagged for a closer look

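For 5 of the 10 genes the change from WT to Qk-KO differed between culture and callosum by a two-sided z test of the difference itself, adjusted over 16601 genes. The difference, culture minus callosum in log2 units, was -1.0778 for Me1, -1.171 for Scd1, -1.2455 for Scd2, -0.80 for Fads1 and -1.0157 for Fads2. Each of these genes was lower in culture by more than in callosum, and Scd1 and Scd2 were called in both systems. The test takes the deposited SE with a normal reference, and it does not separate genotype from the 40HT and EtOH labels of the cultures.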

How the results depend on the processing

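Fitted means have no replicate spread, so libraries could not be left out in turn. No paired analysis was possible because the library columns hold fitted means of a model with genotype alone, so the deposited culture test leaves the shared passages unused. With a minimum fold of 1.5, 0 genes of the 10 were lower in callosum. A Student reference (6 degrees of freedom in callosum, 4 in culture) left 0 lower in callosum and 0 in culture. It was not run for the difference between systems. At an adjusted p under 0.1, with a mean of at least 50, or with scaling by total fitted counts, 1 gene of the 10, Acly, counted as higher in culture. That scaling adds 0.0231 log2 units in callosum and 0.0772 in culture, and it turned Acaca in culture to 0.0557 and Insig1 in culture to 0.0268, neither passing. A median of tested genes at 0 adds 0.0077 and -0.0134. The count of 5 genes with a difference between systems held under every alternative run for it, and the count of lower genes in culture stayed between 5 and 8 under those other than the Student reference. Acacb, the scarcest of the 10 by CPM per kb, has the widest interval of the 10 in both systems. For changes other than these, the cause was not tested.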
